A study of Homo sapiens with 43 samples.

Results

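The regions described here had no called CDK9 peak in SUDHL5 cells given DMSO, a called peak there after 2 h of CDK-TCIP1, and a called peak in KARPAS422 cells given DMSO. Peaks of the 12 CDK9 lists on chromosomes 1 to 22 and X were merged where they overlapped by at least 1 bp, which gave 25115 regions. Of these, 656 had a peak in all 4 treated SUDHL5 lists (both antibodies), in none of the 4 SUDHL5 DMSO lists, and in both KARPAS422 DMSO lists. They were 33.5% of the 1959 regions gained in SUDHL5 and 14.6% of the 4499 regions held by both KARPAS422 DMSO lists; over all regions the 2 criteria alone were met by 7.8% and 17.9%. The regions were chosen by these called peaks, so the gain in SUDHL5 and the occupancy in untreated KARPAS422 are descriptions with no test.

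SUDHL5 and KARPAS422 are established cell lines grown from diffuse large B-cell lymphomas. Cells of both lines received 30 nM CDK-TCIP1 or DMSO, at 0.1% DMSO, for 2 h before CDK9 chromatin immunoprecipitation with sequencing, using antibodies ab239364 and CST2316S in SUDHL5 and CST2316S in KARPAS422, with 2 lists per group. RNA polymerase II was mapped in SUDHL5 only, as the form phosphorylated on serine 5 (Ser5P) or serine 2 (Ser2P) of its tail, 2 lists each. A further polymerase antibody, labelled Pol II, had 3 lists each, and its peaks are not taken as total polymerase. All 3 were mapped after DMSO for 4 h and CDK-TCIP1 for 2 h or 4 h. Each group is 1 cell line, and the labels do not say that replicates were separate cultures.

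CDK9 is the kinase of P-TEFb, which releases paused polymerase into elongation and phosphorylates serine 2 of the polymerase tail. Serine 5 phosphorylation marks polymerase near gene starts, and serine 2 phosphorylation builds up along the gene body. BCL6, a repressor made by germinal-centre B cells, silences genes of cell-cycle arrest and death. CDK-TCIP1 is a bivalent molecule that joins a ligand of CDK9 to a ligand of BCL6, so that the kinase is brought to chromatin where BCL6 sits.

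The SUDHL5 DMSO lists were short, 915 to 3508 peaks against 9262 to 11148 after treatment, while the KARPAS422 DMSO lists held 6689 to 7804 and the treated ones 10297 to 14554. Absence from a SUDHL5 DMSO list therefore depends on how few peaks that list holds. When every CDK9 list gave only its 915 top peaks by q, 9 regions met the rule, and 3 of those overlapped the 656: the regions near XCR1, at DTX3L and PARP15, and near PTPRJ. Counting only summits with 100 bp on each side left 217 regions, and asking peaks to cover 50% of the region left 203. Ser5P lists held 10816 to 17784 peaks, Ser2P lists 6519 to 28951 and Pol II lists 138 to 4000.

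Promoters of some of these regions are shown because the regions hold whole annotated promoters. The first 6 are those best ranked in treated SUDHL5 among regions with such a promoter, followed by IRF8 and P2RY8, germinal-centre genes. Each line is the 150 bases before an annotated start from RefSeq, GRCh38.p14, 5′ to 3′ on the gene's strand. Such a start need not be the outer start of the gene, and those of PLEKHG1 and P2RY8 lie within the gene. Capitals mark TTCNNNGAA, searched on both strands; it includes TTCCTAGAA, a form of the BCL6 site.
PARP15 (chr3:122577500-122577649, plus strand): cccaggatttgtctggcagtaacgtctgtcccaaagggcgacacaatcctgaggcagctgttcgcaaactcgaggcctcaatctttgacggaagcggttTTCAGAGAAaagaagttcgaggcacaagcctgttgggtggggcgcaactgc
C1RL (chr12:7109215-7109364, minus strand): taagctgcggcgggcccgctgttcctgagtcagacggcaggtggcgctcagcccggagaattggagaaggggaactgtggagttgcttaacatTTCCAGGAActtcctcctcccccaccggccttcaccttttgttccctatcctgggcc
PLEKHG1 (chr6:150632814-150632963, plus strand): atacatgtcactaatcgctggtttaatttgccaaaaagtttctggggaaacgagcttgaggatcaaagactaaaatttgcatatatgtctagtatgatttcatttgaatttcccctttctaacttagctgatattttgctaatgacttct
CDKN1B (chr12:12717218-12717367, plus strand): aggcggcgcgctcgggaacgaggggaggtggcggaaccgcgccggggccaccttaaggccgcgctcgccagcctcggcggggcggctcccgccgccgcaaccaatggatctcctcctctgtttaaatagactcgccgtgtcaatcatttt
ZEB2 (chr2:144520120-144520269, minus strand): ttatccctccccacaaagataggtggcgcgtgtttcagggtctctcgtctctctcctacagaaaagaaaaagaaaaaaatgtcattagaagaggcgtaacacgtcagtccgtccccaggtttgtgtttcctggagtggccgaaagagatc
TNFAIP8 (chr5:119354623-119354772, plus strand): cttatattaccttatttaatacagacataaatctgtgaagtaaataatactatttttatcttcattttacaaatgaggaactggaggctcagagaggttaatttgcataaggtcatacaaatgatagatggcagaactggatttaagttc
IRF8 (chr16:85902680-85902829, plus strand): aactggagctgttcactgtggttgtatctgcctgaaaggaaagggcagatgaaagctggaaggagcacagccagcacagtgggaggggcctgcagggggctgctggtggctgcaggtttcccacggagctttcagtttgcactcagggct
P2RY8 (chrX:1494381-1494530, minus strand): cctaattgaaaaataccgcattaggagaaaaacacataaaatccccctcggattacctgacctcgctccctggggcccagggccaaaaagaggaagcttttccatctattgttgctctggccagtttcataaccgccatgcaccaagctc

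The 8 promoters ranged from CpG-rich to CpG-poor: the printed CDKN1B bases hold 20 CG pairs, those of PARP15 8 and those of TNFAIP8 0. TTCNNNGAA occurs once before PARP15 and once before C1RL, starting 51 and 57 bases before the annotated start. Over the 333 annotated promoter windows that lie whole within the 656 regions (277 genes, 250 bases before to 50 after a start), 9.01% held it, against 7.66% of all 34961 windows. The full letters TTCCTAGAA were in 0 of the 333 and in 0.369% of all windows, too rare for 0 of 333 to be read. CCGGAAG, the core of ETS-family sites, was in 13.5% against 10.3%, and TATAAA in 6.31% against 11.5%. The gained regions with no peak in either KARPAS422 DMSO list held 188 windows. Of these, 10.1% held TTCNNNGAA, 4 (2.13%) TTCCTAGAA, 11.7% CCGGAAG and 10.1% TATAAA. The regions in all 8 SUDHL5 lists held 247, with 7.29%, 0.405%, 10.1% and 16.6% in that order. The median window of the regions held 22 CG pairs, against 14 over all windows, 23.5 in the gained regions with no peak in either KARPAS422 DMSO list and 25 in the regions in all 8 SUDHL5 lists.

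A majority of the regions lay away from gene ends. Of the 656, 245 (37.3%) reached within 1 kb of an end of a protein-coding gene, 247 (37.7%) lay inside a gene and 164 (25.0%) outside genes. Only protein-coding genes were counted here, and ends are their outer limits. Starts within a gene or of other gene classes do not count. Off chromosome 8, 262 of 617 regions (42.5%) reached within 1 kb of any annotated start, against 29.7% of all regions. Where the strand was known, 192 of 205 gene-end regions (93.7%) touched a gene start. The 1033 regions gained in SUDHL5 with no peak in either KARPAS422 DMSO list were at gene ends in 18.8%, all regions in 29.3%, the 223 regions in all 8 SUDHL5 lists in 56.1%, and the other 3843 regions in both KARPAS422 DMSO lists in 51.3%. Within 1 kb of any annotated start off chromosome 8, these 4 sets had 19.5%, 29.7%, 62.7% and 53.6%. Width was not matched: all regions had a median of 0.837 kb, the 656 of 3.11 kb. The 656 thus fell between the purely gained regions and those occupied before treatment.

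The regions were 3.11 kb wide at the median, with quartiles of 2.10 and 4.52 kb, against 1.98 kb for the gained regions without KARPAS422 DMSO peaks and 5.68 kb for those in all 8 SUDHL5 lists. Merging peaks of more lists widens a region by itself. The length under peaks of a single list was also larger here: with CST2316S in treated SUDHL5 it was a median of 1.94 and 1.95 kb per region, against 1.59 and 1.58 kb in the gained regions without KARPAS422 DMSO peaks. More than 1 peak of these lists lay in 19.97% and 17.1% of the 656, against 9.39% and 6.20% of that set. Length and number of peaks were both summed over the merged region, so a region widened by merging can hold more of each. The narrow regions were at genes more often, with 51.4% of those under 2 kb at a gene end and 24.9% of those of 4 kb or more. Among the widest were 12.3 kb inside CBLB (chr3:105821289-105833551), a ubiquitin ligase that restrains lymphocyte signalling, and 11.1 kb inside FOXP1 (chr3:71447386-71458469), a transcription factor of B cells. The farthest from any protein-coding gene end, 1313 kb away at chr14:106843265-106845585, was listed with TMEM121 as its nearest protein-coding gene. An annotated start of another gene class lay 226 bp from it, and every Ser5P and Ser2P list held a peak there.

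**Figure D1:**
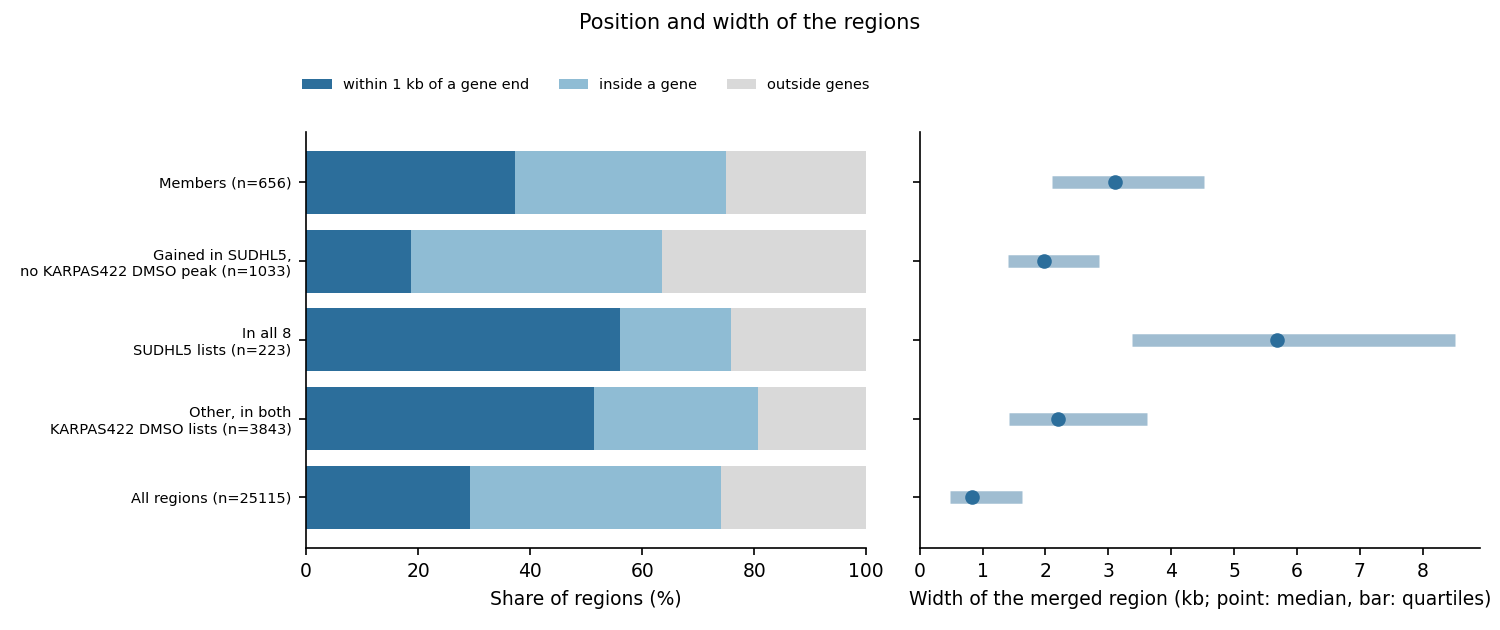
Left, the share (%) of regions within 1 kb of a protein-coding gene end, inside a gene or outside genes, for 5 sets. Right, the width of the merged regions in kb (point, median; bar, quartiles). At 37.3% at gene ends, the 656 members stand between the gained regions without a KARPAS422 DMSO peak (18.8%) and those in all 8 SUDHL5 lists (56.1%).

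Neighbouring regions grouped at some genes: 180 of the 656 (27.4%) had another within 50 kb, against 33.0% of the gained regions without KARPAS422 DMSO peaks. That set is larger, at 1033 regions, and a larger set has more neighbours by itself, so the shares are not like for like. The largest group was 6 regions over 132 kb at IRF2 (chr4:184265368-184397231), an interferon regulatory factor. Groups of 5 lay at PTPRJ, a receptor tyrosine phosphatase, and at PPP2R5C, a regulatory subunit of a protein phosphatase. Groups of 4 lay at RGS16 and RGS8, regulators of G-protein signalling, at CBLB, at TOX, and at NANS and TRIM14.

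Of the 12 regions with the best ranks in treated SUDHL5, those at C1RL and at DTX3L and PARP15 lay at gene ends and the others inside or outside genes. Fold enrichment is the authors' value for the peak of highest q over its own background, and it is not scaled between lists. The region near XCR1 (chr3:46089014-46099488), a chemokine receptor gene, had fold enrichments of 10.0 and 10.4 with ab239364 and 25.3 and 17.4 with CST2316S in treated SUDHL5. In KARPAS422 its fold was 9.47 and 15.1 in the DMSO lists and 19.9 and 26.4 in the treated ones. It was thus high in untreated KARPAS422 already, at percentiles 98.1 and 98.3 of the lists' peaks.

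The region 38.8 kb from PTPRC (chr1:198597636-198599891), the gene of the leukocyte phosphatase CD45, had 13.7 and 11.0 with ab239364 and 37.1 and 28.2 with CST2316S. Its fold in the KARPAS422 DMSO lists was 3.02 and 2.47, and 11.3 and 8.07 in the treated ones. Inside SCAMP5 (chr15:75007064-75011710), a secretory carrier membrane protein, the 4 treated SUDHL5 lists gave 10.8, 13.4, 33.4 and 33.3. There the KARPAS422 lists gave 2.96 and 3.51 in DMSO and 59.2 and 29.6 after treatment. Unlike the region near XCR1, both ranked in the lower part of the untreated KARPAS422 lists, at percentiles 33.7 and 4.83 near PTPRC and 47.3 and 38.4 in SCAMP5.

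At the start of C1RL (chr12:7107943-7109590), a complement-like serine protease whose promoter is printed above, fold was 7.02, 6.002, 17.7 and 9.51 in treated SUDHL5. It was 2.35 and 3.89 in KARPAS422 DMSO and 38.0 and 37.3 after treatment. At DTX3L and PARP15 (chr3:122574613-122578894), which encode a ubiquitin ligase and an ADP-ribosyltransferase, fold was 14.1, 9.63, 22.5 and 11.8 in treated SUDHL5, 6.37 and 9.25 in KARPAS422 DMSO and 20.6 and 19.6 after treatment. The others of the 12 lay inside EPN2, CDH23, AUTS2, P2RY8 and OSBPL3, 60.9 kb from CD99, and 319 kb from MYC. P2RY8 and CD99 lie in the region shared by X and Y, where reads fit both chromosomes.

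**Figure D2:**
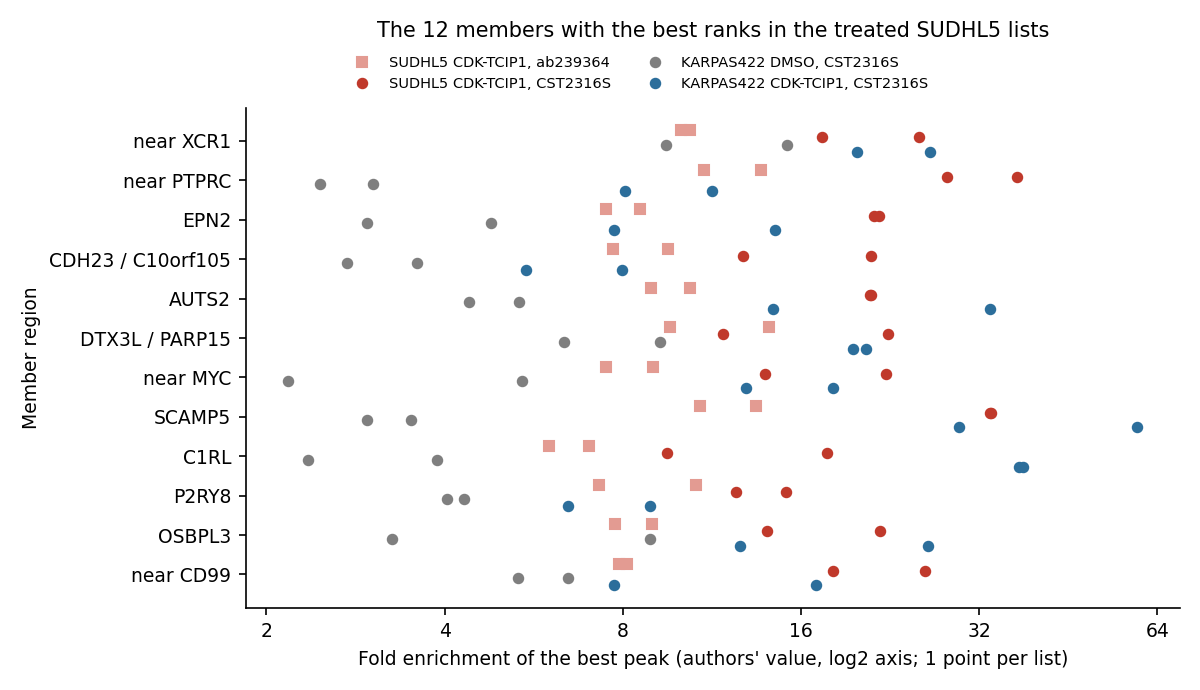
The x axis is the authors' fold enrichment of the best peak (log2 axis), with 1 point per list for the 12 best-ranked regions in treated SUDHL5, by line, antibody and treatment. KARPAS422 DMSO points sit at the left for most regions and highest near XCR1, at 9.47 and 15.1.

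Ranks in untreated KARPAS422 gave another order. The best there lay inside LDLRAD4, a negative regulator of TGF-beta signalling (chr18:13608145-13617074 and chr18:13565930-13569301), at RCSD1, which encodes an actin-capping regulator, at BFSP2, and 271 kb from RYBP, which encodes a Polycomb subunit. At RCSD1 (chr1:167626737-167634558) fold was 17.5 and 30.6 in KARPAS422 DMSO, and 5.42, 4.40, 12.2 and 7.79 in treated SUDHL5. Of the 5 weakest in treated SUDHL5, those at RAB30 (2.86, 1.99, 2.90 and 2.37), RNF145 (3.19, 2.33, 2.76 and 2.26) and MAP2K5 lay at gene starts, 1 at an end of LYPLA1, and 1 lay 18.1 kb from MGAT5B. Between 0.457% and 2.59% of the 656 had a −log10 q under 2 in a given list used by the rule.

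Over the 636 regions with a peak in all 8 lists, ranks in treated SUDHL5 (CST2316S) hardly followed those in untreated KARPAS422, with Spearman's rank correlation between 0.044 and 0.066 over the 4 pairs of lists. Against treated KARPAS422 the coefficient was 0.363 to 0.412. In the 1136 other regions in the same 8 lists, it was 0.188 to 0.203 and 0.584 to 0.630. These coefficients are across regions, which share libraries and depth, and the rule trims the range of the 656, so they are descriptions.

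Peak summits also differed in place. Summits of the CST2316S replicates in treated SUDHL5 lay a median of 94.5 bp apart, those of the KARPAS422 DMSO replicates 150 bp, and those of CST2316S in treated SUDHL5 against KARPAS422 DMSO 293 to 345 bp. Within KARPAS422, summits after DMSO and after CDK-TCIP1 were 201 to 257 bp apart at the median. A single base lay under a peak of all 6 lists the rule asks for in 554 of the 656 (84.5%). The shared stretch had a median length of 437 bases.

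**Figure D3:**
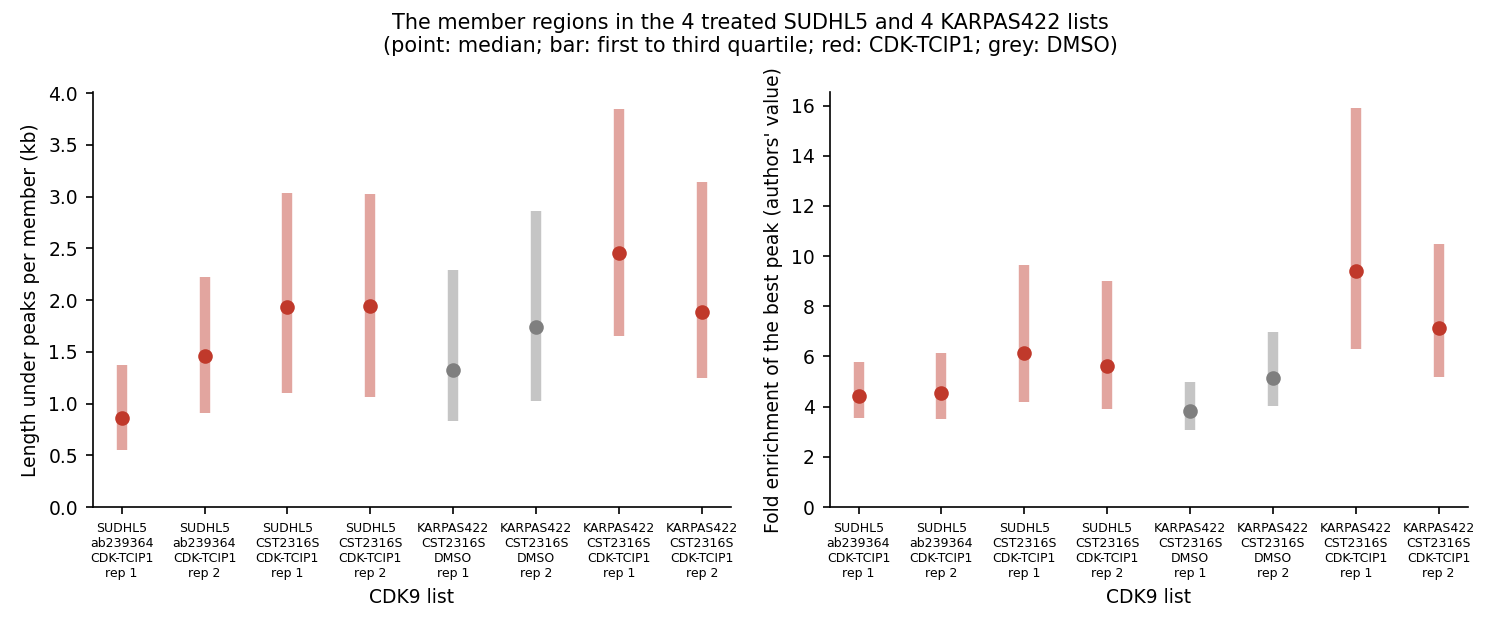
Length under peaks in kb (left) and authors' fold enrichment of the best peak (right) for the 656 regions in each of 8 CDK9 lists (point, median; bar, quartiles; red, CDK-TCIP1; grey, DMSO). Median covered length was 1.33 and 1.74 kb in KARPAS422 DMSO and 2.46 and 1.89 kb in the treated lists; fold is not scaled between lists.

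The treated KARPAS422 lists were not used by the rule. Of the 656 regions, 636 (97.0%) kept a peak in both, 19 in 1 list and 1, at TRNT1 (a tRNA-modifying enzyme gene), in neither. Over all 4499 regions in both DMSO lists, which include the 656, 86% were in both treated lists. Those 4499 were narrower, at a median of 2.31 kb against 3.11 kb. Of the 1162 of them in all 4 treated SUDHL5 lists and a SUDHL5 DMSO list, 97.8% were in both treated KARPAS422 lists. The high share was thus not particular to the 656. The length under peaks was larger in both treated lists than in both DMSO lists for 312 of the 656 (47.6%), against 32.7% of the 4499, and smaller for 44 (6.71%), against 15.8%. Treated lists were longer than DMSO lists, so these counts move with list length.

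Taking an equal count of peaks, the 2000 best by q, from each KARPAS422 list removed the difference in list length. Among the 411 regions away from gene ends, 40.6% and 42.1% had 1 of the 2000 top peaks by q in the DMSO lists, and 58.9% and 57.9% in the treated lists, a difference of 17.03 percentage points. Among the 245 at gene ends the shares were 47.3% and 50.6% in DMSO and 38.0% in each treated list, a difference of −11.0 points. The number of top peaks is fixed, so a larger share in 1 kind of region leaves a smaller share for others: gene ends took 48.7% and 50.2% of the 2000 top peaks in the DMSO lists and 29.3% and 30.6% in the treated ones. These shares are places in a ranking and do not show that CDK9 fell at gene ends. Regions away from gene ends include some at starts within a gene. Over all 656 the shares were 43.1% and 45.3% in DMSO and 51.1% and 50.5% after treatment, a difference of 6.55 points.

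In the other 3843 regions in both DMSO lists the shares were 38.4% and 39.5% in DMSO and 42.8% and 40.3% after treatment away from gene ends (2.62 points), and 42.9% and 43.6% in DMSO and 20.1% and 21.7% after treatment at gene ends (−22.4 points). The treated minus DMSO difference of the 656 exceeded that of the others by 14.4 points away from gene ends and 11.3 points at gene ends. Regions in all 4 treated SUDHL5 lists and at least 1 SUDHL5 DMSO list differed by 5.39 points away from gene ends (529 regions) and by −24.6 points at gene ends (633 regions). Regions of KARPAS422 with no SUDHL5 peak at all differed by 0.555 and −13.8 points (721 and 275 regions). The rule used the KARPAS422 DMSO lists, so these differences are descriptions with no test. The measure, its list sizes and its classes were chosen after values were seen.

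**Figure D4:**
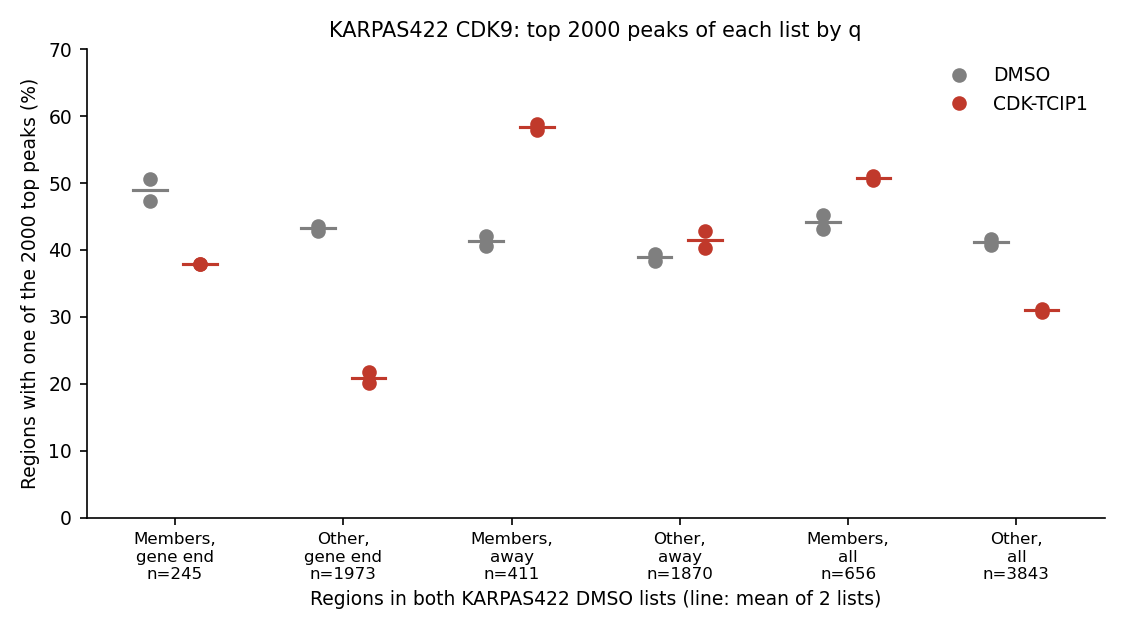
The y axis is the share (%) of regions with 1 of the 2000 top peaks by q of a KARPAS422 list (point, 1 list; line, mean of 2; grey, DMSO; red, CDK-TCIP1), at gene ends, away from them, and overall. The 411 member regions away from gene ends sit at 40.6% and 42.1% in DMSO and at 58.9% and 57.9% after treatment, while the 245 at gene ends sit at 47.3% and 50.6% in DMSO and at 38.0% after treatment.

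The highest-ranked of the 656 in treated KARPAS422, named after their values were seen, lay away from protein-coding gene ends except 1 at C16orf74. The region 2.26 kb from MPEG1, a pore-forming protein of phagocytes (chr11:59215183-59218643), had fold 8.20 and 15.4 in DMSO and 108 and 79.2 after treatment. The region inside PLEKHG1 (chr6:150629953-150638683) holds a start within the gene, whose promoter is printed above. Its fold was 5.80 and 4.72 in DMSO and 85.3 and 48.8 after treatment, and 12.6, 8.09, 39.9 and 16.1 in treated SUDHL5. Others lay in PDGFD and SLC16A4 and near THSD7A and GALC.

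Genes of fixed lists held few of the regions. Of 19974 protein-coding genes, 291 (1.46%) had 1 at an end and 484 (2.42%) at an end or inside. Among 32 BCL6 targets 4 had 1 at an end, including CDKN1B, CD86 and MYC, and ARID5B held 1 inside. Among 24 pro-apoptotic genes TNFRSF10A (TRAIL receptor) had 1 at its end, and HRK (a BH3-only protein), FAS (a death receptor) and CASP8 (an initiator caspase) had 1 inside. The region inside FAS (chr10:88989523-88994418) also lies at the start of ACTA2, a smooth-muscle actin gene that overlaps FAS. Among 19 cell-cycle arrest genes CDKN1B (p27) had 1 at an end and CDKN2C (p18) 1 inside. Anti-apoptotic, FOXO, plasma-cell and P-TEFb lists had none (0 of 10, 14, 12 and 26 genes).

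The germinal-centre list had the most: of 33 genes in the reference, IRF8, CD22 and CD37 at an end and EBF1, MEF2C, BACH2, P2RY8 and POU2F2 inside (24.2% with any, against 2.42% of all genes). IRF8, EBF1, MEF2C, BACH2 and POU2F2 encode transcription factors of B cells, CD22 and CD37 surface proteins. EBF1 held 4 separate regions and P2RY8 3. Other lists came near that share: BCL6 corepressors 22.2%, pro-apoptotic genes and B-cell markers 16.7% each, BCL6 targets 15.6% and immediate-early genes 14.3%. The remaining lists were lower, down to 0. Gene length was not matched in these counts. Among 18 BCL6 corepressor genes HDAC1 had 1 at an end and BCOR, CTBP1 and KDM2B held 1 or more inside. Immediate-early genes JUND, EGR3 and MYC, of 21, had 1 at an end. Of 17 NF-kB genes CD86 had 1, of 18 MYC and growth genes MYC, and of 12 chromatin modifiers ARID1B. Of the markers fixed to check the cell type, 1 of 6 for B cells (CD22), 0 of 10 for T cells and 0 of 10 for myeloid cells had 1 of the regions, which says nothing of expression.

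The 4 treated SUDHL5 values below are in the order ab239364, then CST2316S. At HRK (chr12:116858058-116862392) fold was 7.06 and 10.1 with ab239364 and 16.1 and 16.5 with CST2316S in treated SUDHL5, 3.95 and 3.11 in KARPAS422 DMSO, and 18.7 and 9.40 after treatment. At CDKN1B (chr12:12713907-12719830) it was 5.91, 6.25, 9.79 and 7.88 in treated SUDHL5, 3.29 and 3.91 in KARPAS422 DMSO, and 5.03 and 6.41 after treatment. At IRF8 (chr16:85898290-85904588) the treated SUDHL5 lists gave 6.48, 8.27, 14.4 and 7.61, with 3.30 and 3.17 in KARPAS422 DMSO and 8.30 and 7.82 after treatment.

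CD86 encodes a T-cell costimulator, and its region (chr3:122052767-122056827) had fold 3.71, 5.74, 6.12 and 9.64 in treated SUDHL5, 3.83 and 7.93 in KARPAS422 DMSO, and 22.3 and 21.5 after treatment. At JUND (chr19:18278399-18281731), an AP-1 subunit, the 4 treated SUDHL5 lists gave 5.77, 4.34, 3.12 and 3.60, and KARPAS422 gave 9.07 and 9.71 in DMSO and 7.73 and 6.59 after treatment. All 9 Pol II lists held a peak there.

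Polymerase peaks in SUDHL5 were not used by the rule. In DMSO, 75.5% and 62.7% of the 656 regions had a Ser5P peak, 55.0% and 47.0% a Ser2P peak, and 4.88%, 22.4% and 12.8% a Pol II peak. In the other 3843 regions in both KARPAS422 DMSO lists, Ser5P was at 66.1% and 59.5% and Ser2P at 59.0% and 51.3%. Pol II was at 10.0%, 30.2% and 22.3% there. In each DMSO list the 656 were thus above those regions for Ser5P and below them for Ser2P and Pol II. Both Ser5P DMSO lists held 391 of the 656 (59.6%), against 32.1% of the gained regions without KARPAS422 DMSO peaks, 98.7% of those in all 8 SUDHL5 lists and 24.7% of all regions. Away from gene ends the share was 47.2%, against 25.6% of the gained regions without KARPAS422 DMSO peaks and 12.4% of all regions, and at gene ends 80.4%, against 60.3% and 54.5%. Under 2 kb it was 64.4%, against 26.4% and 18.6%. At 4 kb or more it was 53.6%, against 48.1% and 64.1%, so among wide regions the 656 were below all regions. Only 70 of the 656 (10.7%) had no peak in any of the 21 polymerase lists, 67 of them away from gene ends, against 27.6% and, over all regions, 52.4%.

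After treatment the mean shares with a Ser5P or Ser2P peak differed from DMSO by less than the lists of the more variable group differed among themselves. For the less variable group this did not always hold. Ser5P was at 80.5% and 73.0% at 2 h and at 67.7% and 71.3% at 4 h, differences from DMSO of 7.70 and 0.457 percentage points. Ser2P was at 28.0% and 55.9% at 2 h and at 55.5% and 53.7% at 4 h, differences of −8.99 and 3.58 points. The low value at 2 h belongs to Ser2P replicate 1, whose list held 6519 peaks, the fewest of that form; without it the difference was 4.95 points. Pol II was at 9.76%, 30.3% and 16.9% at 2 h and at 1.07%, 25.2% and 12.0% at 4 h, differences of 5.64 and −0.61 points. Same-numbered Pol II lists of DMSO and 2 h deviated together (correlations 0.416, 0.307 and 0.13), and the share at 2 h was the higher in all 3 pairs; with the replicate number as a block the exact permutation p was 0.25, the smallest that 3 pairs can give. The 2 h list was also the longer in each pair, with 1214, 4000 and 2385 peaks against 710, 3229 and 2028. With lists of equal length the 2 h difference was 0.152 points.

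Exact two-sided permutation tests gave p = 0.67 and 1 for Ser5P, 1 and 0.67 for Ser2P, and 0.6 and 0.9 for Pol II at 2 h and 4 h. Adjusted over the 6 tests each exact p was 1, and the smallest exact p these designs allow is 0.33 with 2 lists a group and 0.1 with 3. The DMSO lists are from 4 h and are shared by both times. The change in the 656 minus the change in the gained regions without KARPAS422 DMSO peaks was −2.51 and −3.95 points for Ser5P (exact permutation p = 0.33 each, adjusted p = 0.96), so a difference between these sets in their response was not detectable.

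**Figure D5:**
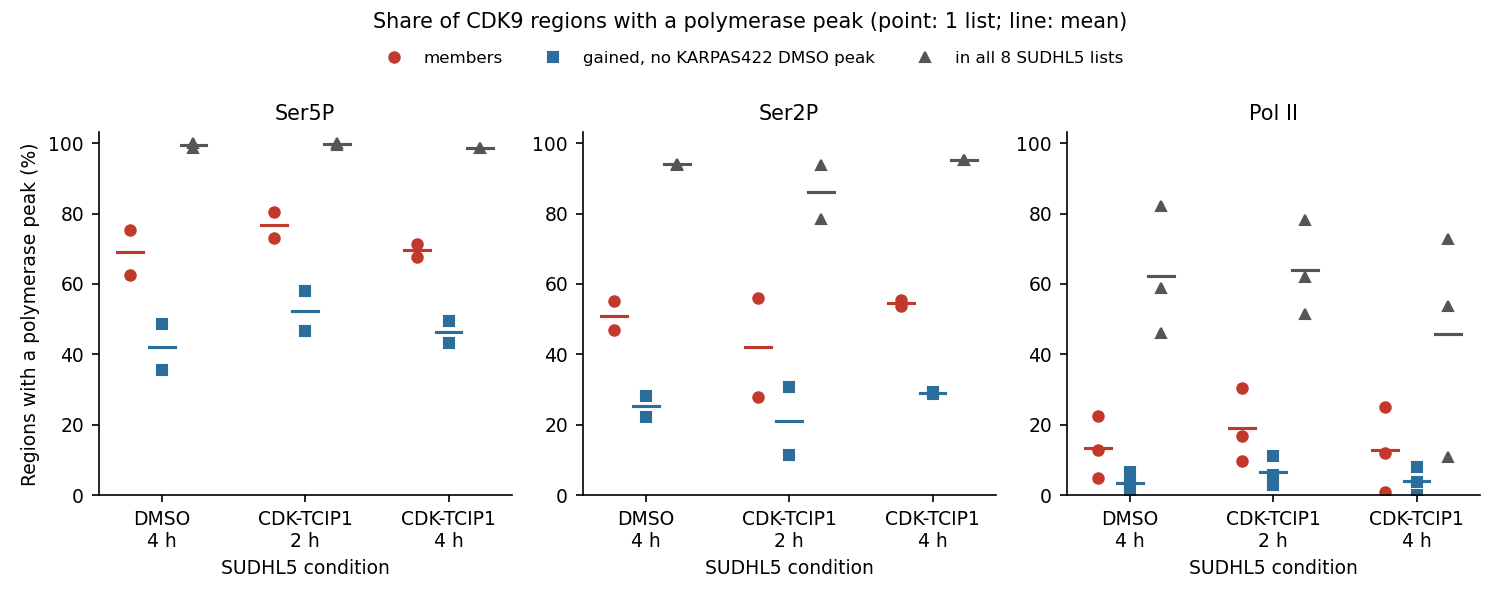
The y axis is the share (%) of regions with a polymerase peak in SUDHL5 (point, 1 list; line, mean), for Ser5P, Ser2P and Pol II after DMSO 4 h and CDK-TCIP1 2 h and 4 h. At each condition the 656 members lie between the gained regions without KARPAS422 DMSO peaks and the regions in all 8 SUDHL5 lists on average, and treated and DMSO lists of the members overlap.

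Few regions switched a polymerase form in every replicate. A Ser5P peak appeared in both 2 h lists and neither DMSO list in 19 of the 656 (2.90%; 2.43% of all regions) and was lost in 3 (0.457%; 0.526% of all). At 4 h, 13 gained it (1.98%; 1.22% of all) and 15 lost it (2.29%; 0.908% of all). Only regions with a Ser5P peak in both DMSO lists could lose it by this rule. Of these 391, 0.767% lost it at 2 h and 3.84% at 4 h, against 2.12% and 3.67% of such regions overall. Of the 141 with no Ser5P DMSO peak, 13.5% gained 1 at 2 h, against 9.27% of such regions in the gained set without KARPAS422 DMSO peaks and 3.81% of such regions overall. The gains at 2 h included regions near PTPRJ, at and near CLECL1, in PLEKHA2 and GPR160, in EBF1, and at RGCC, a cell-cycle regulator. At RGCC (chr13:41457134-41464365) and near PTPRJ (chr11:47913055-47921460) both 4 h lists held a Ser5P peak as well.

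Ser2P was gained at 2 h by 5 regions (0.762%; 0.199% of all) and lost by 20 (3.05%; 1.43% of all). The 5 were in HRK, CBLB, NFIB and LDLRAD4 and 33.96 kb from RGS1. Both 4 h lists, not used to choose these 5, also held a Ser2P peak in HRK, in NFIB and near RGS1. At 4 h, 13 gained Ser2P (1.98%; 1.51% of all) and 7 lost it (1.07%; 0.948% of all). Only regions with a Ser2P peak in both DMSO lists could lose it by this rule. Of these 280, 7.14% lost it at 2 h and 2.5% at 4 h, against 7.01% and 4.66% of such regions overall.

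Pol II was gained at 2 h, with a peak in all 3 treated and none of the 3 DMSO lists, at 5 of the 656 (0.762%) out of 27 among all regions (0.108%). They were the starts of ELF1 and WBP4 and of NADK (an NAD kinase), an end of TNFRSF10A and of FNTA, whose strand is not in the tables used here, and a region 4.51 kb from C16orf74 (chr16:85755608-85759927). Ser5P was in both DMSO lists at all 5. At 4 h, 0 of the 656 gained Pol II by the same rule, and 1 Pol II list at 4 h held only 138 peaks.

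Many regions missed the rule by 1 list. With a peak in both KARPAS422 DMSO lists, 386 regions lacked 1 of the 4 treated SUDHL5 lists, 233 of them ab239364 replicate 1, and 445 had a peak in 1 SUDHL5 DMSO list, 304 of them ab239364 replicate 2, the longest DMSO list in SUDHL5. Another 270 had a peak in 1 KARPAS422 DMSO list only. The median widths of these 3 sets, 2.49, 3.19 and 2.26 kb, surround the 3.11 kb of the 656.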

How the data were processed

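The labels describe 43 samples, and peak lists were used for 33; the 10 inputs have no list. The submitters' processing notes name, in no stated order, the peak caller MACS2, the aligner Bowtie2, Trim Galore, FastQC, Picard, SAMtools, deepTools and bedtools, and genomes hg38 and dm6. Their versions, the control libraries and any blacklist are not given in the sources used. Drosophila chromatin was added to CDK9 samples per the labels, and no value scaled to it was used. The labels write the number of antibody CST2316S in 2 ways, and file names give CDK9 DMSO as 0 h where the labels, followed here, say 2 h.

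The deposited lists give the authors' fold enrichment, a ratio over each list's own background, and the authors' −log10 p and −log10 q (lowest q value on that scale 1.301). The deposited score column, as the authors gave it, was not analysed. Fold and q were used only to describe and rank peaks within a list. Outside chromosomes 1 to 22 and X lay 25 of 286536 peaks, which were dropped. The files carry no read totals, so depth is unknown. A list held a region when a peak overlapped it by 1 bp or more. Genes, promoters and strands came from RefSeq tables of GRCh38.p14, the build hg38 is named after; promoter windows matched 79.2% of 19974 protein-coding genes and none on chromosome 8, and the gene table has no strand. Mean shares of treated and DMSO lists were tested by exact permutation, two-sided and Benjamini-Hochberg adjusted; p-values measure only the spread between these lists. Scripts used Python 3.11.15, pandas 2.3.3 and scipy 1.17.1 and were tested on simulated lists.

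Same-numbered deviations correlated by more than 0.1 in all 3 pairs only for Pol II at 2 h against DMSO, where the numbers were taken as pairs; this comes from the data, not the labels. At 4 h the lowest of the Pol II pairs was 0.0808, and Ser5P and Ser2P have 2 pairs each, with correlations from -0.106 to 0.139. Named regions were the 12 best-ranked in treated SUDHL5, 5 each of the best in KARPAS422 DMSO, widest, farthest and weakest, those at listed genes and those that gained a polymerase form. Some are not reported here. The regions, gene lists and rules were chosen with earlier results of these data known. Alternatives were a stricter −log10 q (5), equal list lengths, 50% cover, other merging, summits, replicate block, gene ends only and each list left out; those on top-ranked KARPAS422 peaks and on a shared base were added after the data were seen.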

Additional observations from a re-analysis of the deposited data

How the results depend on the processing

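The 656 regions became 471 at a −log10 q of at least 5, 660 when merging only within treated SUDHL5 lists, and 554 with a shared base. The rule was met by 9 regions with equal list lengths, only 3 of them among the 656, by 203 with 50% cover and by 217 with summits, and leaving out 1 list gave 662 to 960, the most without ab239364 DMSO replicate 2. The share in both treated KARPAS422 lists (97.0%) was 100% of those 9, 89.7% with 50% cover and 87.6% with summits, and 94.1% to 99.5% with 1 list left out. Of the polymerase differences, in percentage points, the Ser2P difference at 2 h reversed to 4.88 with equally long lists, and the Pol II difference at 4 h to 0.254 at the stricter q and 0.356 with equally long lists. Other values moved by over 1.5 times: Pol II at 2 h to 0.152 with equally long lists and 11.4 at gene ends, Pol II at 4 h to -0.136 at gene ends, Ser5P at 4 h to 5.03 with equally long lists, 3.96 at the stricter q and 1.43 at gene ends, and Ser2P at 4 h to 7.09 with equally long lists and 6.40 at the stricter q. With 1 list left out, the differences ranged from 1.296 to 14.1 (Ser5P, 2 h), -5.95 to 6.86 (Ser5P, 4 h), -22.9 to 4.95 (Ser2P, 2 h), -0.457 to 7.62 (Ser2P, 4 h), -0.0254 to 10.3 (Pol II, 2 h) and -6.81 to 5.23 (Pol II, 4 h); the cause was not tested. Their directions at 4 h for Ser5P, Ser2P and Pol II, and at 2 h for Ser2P and Pol II, thus rest on single lists. The share with a top-ranked KARPAS422 peak differed by 6.55 points, by 5.49 to 7.62 with 1 list left out, by 6.17 ranked by fold, 4.497 and 5.41 with 500 and 1000 top peaks, 17.03 away from gene ends and 3.91 in regions under 4 kb; it reversed to -11.0 at gene ends. With the replicate block the differences were as before, 7.70, 0.457, -8.99, 3.58, 5.64 and -0.61, with exact permutation p of 0.5, 1, 1, 0.5, 0.25 and 0.75; these designs could not pass 0.05. Depth is unknown, so a missing peak is not absence of CDK9.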

Other observations

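Annotated miRNA genes lay within few of the regions: MIR423 and MIR3184 in the region at NSRP1, MIR6090 in ETS1, MIR4434 in AFTPH and MIR4466 at ARID1B. The regions were spread over all 23 chromosomes, from 6 on chromosome 22 to 62 on chromosome 1. Their share among all regions of a chromosome ran from 1.27% on chromosome 22 to 3.57% on chromosome 8.

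At gene ends of lncRNA genes only, 71 of the 656 (10.8%) had no protein-coding end within 1 kb, against 6.58% of the gained regions without KARPAS422 DMSO peaks and 4.85% of all regions. It was 11.7% in the regions in all 8 SUDHL5 lists and 6.74% in the other regions in both KARPAS422 DMSO lists. Region width was not matched between these sets. Of the 2000 top peaks in SUDHL5 treated with CDK-TCIP1, gene ends took 50.5% and 43.1% with ab239364 and 19.8% and 19.5% with CST2316S, so the 2 antibodies ranked gene ends differently in the same treated line.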
